A study of Mus musculus with 12 samples.

Results

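The 36 genes described here encode the machinery of DNA replication and of mitosis, except *Ddias*, an inhibitor of apoptosis after DNA damage. They were chosen by name, with earlier results of these data known, in which *Ddias* had been named. Each was represented by 1 row of the array, the brightest of the rows that carry its symbol alone. A row was found for 35 of the 36, among 19938 genes with a row of their own and 35556 rows in all, and *Ccnb1* had none. The genes were followed in resident macrophages (RM) and CD11b+ dendritic cells (CD11b+ DC) sorted from the cecum of mice with and without the transcription factor Runx3. RM were gated as CD45+, CD11c+, MHCII+, CD11b+ and Ly6c- cells with F4/80 on their surface, and CD11b+ DC as the same cells without it. WT mice are labelled Runx3 +/+. The mice without Runx3, called Runx3Δ, are labelled Runx3 -/-, and the series describes them as a conditional knockout in which a CD11c-driven Cre removes Runx3, so that the gene is deleted in cells that express CD11c and not in the whole animal. All mice were on the C57Bl/6 background, were 6 to 8 weeks old and came from shared litters, and each sample was a pool of cells from 3 to 4 mice, male and female. There were 3 WT and 4 Runx3Δ samples of RM, and 2 WT and 3 Runx3Δ samples of CD11b+ DC. The values are log2 intensities of arrays, so the number of arrays limits the precision, and levels of different genes are not compared with each other.

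A cell that enters the cycle makes D-type cyclins, which release E2F transcription factors, and these turn on the genes of DNA replication. Later in the cycle, Foxm1 and the proteins that bind CHR elements turn on the genes of mitosis. Tissue macrophages and dendritic cells of the gut are mostly mature cells that divide little, and dendritic cells arise from precursors that divide. In a sorted population, fewer cycling cells and less RNA per cycling cell cannot be told apart.

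The promoters of these genes carry the elements named above, and a few are shown because the share of promoters with each element differed between the replication genes and the mitosis genes, although neither element parted them. Promoters of 300 bases, from 250 before to 50 after the start of the gene, were found in RefSeq (GRCm38.p6) for 26 of the 36 genes. The CHR element, searched as TTTGAA on both strands, was present in 9 of 12 promoters of mitosis genes (75%) and in 2 of 14 promoters of 13 S phase genes (14.3%), against 17.9% of all 32851 promoters. The E2F site, searched on both strands as TTTCGCGC, TTTGGCGC, TTTCCCGC or TTTGCCGC, was present in 5 of 14 S phase promoters (35.7%) and in 1 of 12 mitosis promoters (8.33%, that of *Cdk1*), against 2.26% of all promoters. On the 2 strands these E2F words can cover the same bases. The CCAAT box, searched as CCAAT on both strands, was present in 91.7% of mitosis promoters and 71.4% of S phase promoters, against 37.4% of all. A match describes these letters in this window and shows no binding. In the following 26 bases the capitals mark the CHR element of 3 mitosis genes and the E2F site of 3 genes of the replicative helicase.
Ccnb2, chr9:70421535-70421560, minus strand: cggcgcggtaTTTGAAtcgcggaccg
Kif11, chr19:37376353-37376378, minus strand: gcgcctcaatTTTGAAaaatggagac
Cdk1, chr10:69352912-69352937, minus strand: ccgcggcgagTTTGAAactgctggca
Mcm3, chr1:20820277-20820302, plus strand: ttcccaagtTTTCCCGCcacggaagt
Mcm5, chr8:75109347-75109372, plus strand: gccaagaacTTTCGCGCcaaaacgtc
Mcm7, chr5:138171851-138171876, minus strand: gtgacgacgTTTCGCGCcaatttcgg

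One of the WT RM samples, replicate 1, stood apart from the other RM in these genes. It was the highest of the 7 RM samples in 27 of 35 genes, whereas it was the highest in 14.4% of all rows. In 25 of the 35 its level was at or above that of the lowest CD11b+ DC, a count for which no share over all rows was computed. Averaged over the 35 genes, as the deviation of a sample from the mean of the gene over the 12 samples, it lay at 0.32 on the log2 scale. The other WT RM lay at -0.34 and -0.37, the Runx3Δ RM at -0.56 to -0.33, and the CD11b+ DC at 0.30 to 0.50. WT RM replicate 1 also had the highest levels of B cell markers. Of 11 measured markers of B and plasma cells, 10 were highest in this sample among the WT RM and 9 among the 7 RM, with a median difference of 1.19 from the other WT RM. Over all genes with a row of their own, this sample was highest among the WT RM in 34.7% and among the 7 RM in 17.4%. *Ms4a1*, which encodes CD20, was at 10.36 there against 9.22 and 8.60 in the other WT RM. Over the 11 markers the mean deviations of the 3 WT RM were 1.09, 0.18 and -0.21. Those of the Runx3Δ RM were 0.08 to 0.61, and those of the CD11b+ DC -0.96 to -0.12. As a summed level on the log2 scale they were at 11.63 to 12.99 in WT RM, 11.92 to 12.56 in Runx3Δ RM, 10.85 to 11.52 in WT CD11b+ DC and 11.01 to 11.79 in Runx3Δ CD11b+ DC. None of the 11 was above 0 in CD11b+ DC minus RM in either genotype. Of 13 T and NK cell markers, 10 were highest in replicate 1 among the WT RM but 0 among the 7 RM. Of 16 epithelial markers, 9 were highest there among the WT RM and 3 among the 7 RM, with a median difference of 0.40. Of 12 stromal and endothelial markers, 7 and 4 were, with a median difference of 0.31. Of 7 monocyte, 12 granulocyte and mast cell, and 5 erythroid markers, 3, 3 and 0 were highest there among the WT RM. Of 13 RM markers, 11 were lowest there among the WT RM (7529 of 19938 over all genes), with a median difference of -0.21. The widest gap was that of *Cd163*, a scavenger receptor, at 6.31 against 9.26 and 7.48. Of 11 markers of CD11b+ DC, 6 were highest there among the WT RM and 3 among the 7 RM, with a median difference of 0.06 and differences up to 1.32, and of 8 markers of cDC1, another DC subset, 5 and 3 were. Averaged over the 11 markers of CD11b+ DC, its deviation was -0.30, against -0.44 and -0.48 in the other WT RM, -0.75 to -0.29 in the Runx3Δ RM and 0.45 to 0.75 in the CD11b+ DC. *Zbtb46*, which marks conventional DC, had a level of 5.56 in this sample against 5.52 and 5.54 in the other WT RM and 6.88 to 7.33 in the CD11b+ DC. *Ccr7*, from the same list but not taken here as particular to DC, was at 11.66 against 10.13 and 10.54. The part of these cells in the results was not tested. Counts and medians below are given with this sample, and without it where they change by over 1.5 times. The sample was singled out by its levels in these same genes. Leaving it out therefore raises the WT difference wherever it is the highest RM, and takes its scatter out of the shared spread. Values and adjusted p without it describe its weight and are not separate tests.

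**Figure D1:**
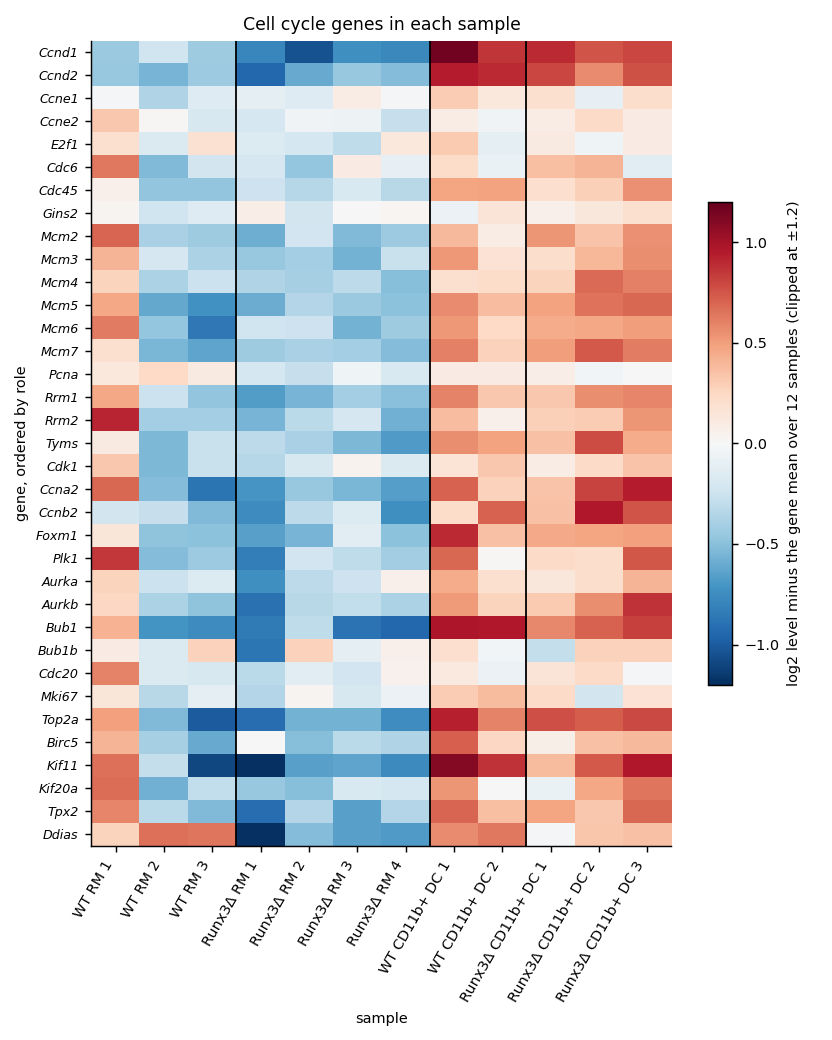
Log2 level of each cell cycle gene (rows, ordered by role) in each of the 12 samples (columns), as the difference from the mean of the gene over the samples, with lines between the 4 groups and the colours clipped at ±1.2. The CD11b+ DC are mostly above 0 and the RM mostly below, with WT RM replicate 1 on the side of the CD11b+ DC.

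**Figure D2:**
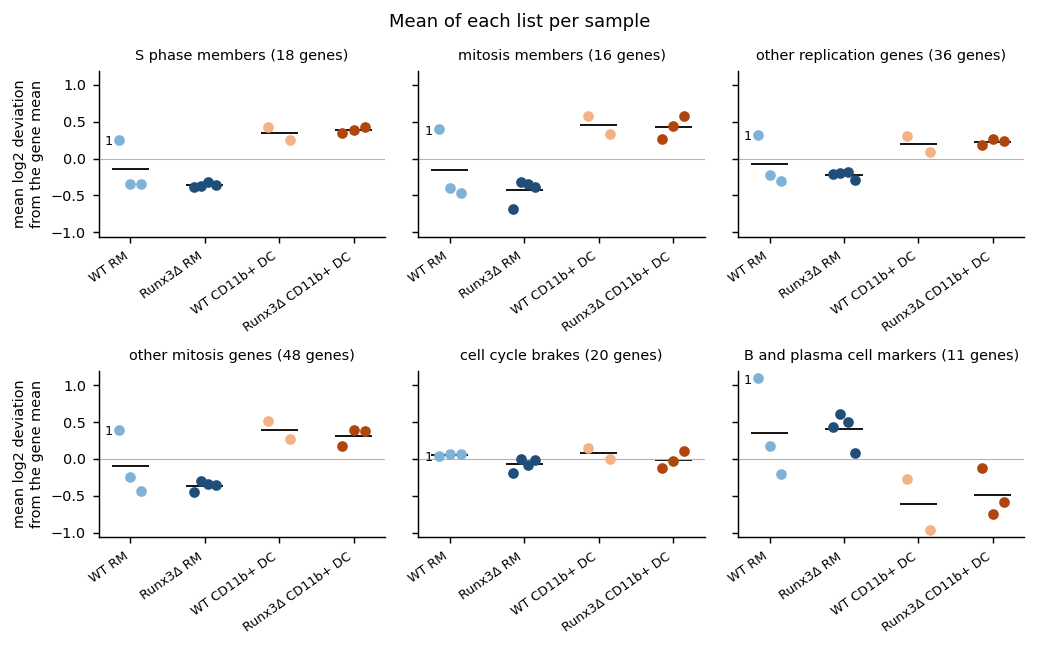
Mean deviation in log2 units from the mean of each gene, per sample (points) with the group mean (lines), for the S phase genes, the mitosis genes, other replication and mitosis genes, inhibitors of the cycle, and B and plasma cell markers. WT RM replicate 1, marked 1, lies with the CD11b+ DC in the 4 lists of cycle genes and above all other samples in the B and plasma cell markers.

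The question put to these genes was how RM differ from CD11b+ DC, and whether the loss of Runx3 moves them in either cell type. Of the defining markers, 12 of 13 RM markers were lower in CD11b+ DC in both genotypes, among them *Adgre1* (-2.13 in WT and -2.31 in Runx3Δ), which encodes F4/80. Of 11 DC markers, 6 were higher in WT and 5 in Runx3Δ CD11b+ DC, and *Sirpa* was lower in both. The row of *Runx3*, at 9.48 to 10.18 over the 12 samples, combines probes along the gene and does not measure the removal of its exon.

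Cell cycle genes were higher in CD11b+ DC than in RM. In Runx3Δ mice 19 of 35 were higher and 0 lower at an adjusted p under 0.05 (limma, adjusted over all rows), where 4.12% of all rows were higher and 3.73% lower, and 5.6% of genes with 1 row each were higher. All 35 were above 0, with a median log2 difference of 0.84 against -0.02 over all genes. In WT mice 6 of 35 were higher and 0 lower, where 3.02% of rows were higher and 3.05% lower, and 4.18% of genes were higher. There 32 were above 0, with a median of 0.44 against -0.01. All 6 genes called in WT were among the 19 called in Runx3Δ. These counts depend on WT RM replicate 1. Without it 19 genes were higher in WT (3.7% of rows), with a median of 0.82, and 24 in Runx3Δ (4.95% of rows). Of these, 18 genes were called in both. The shares of rows given here belong as well beside the counts by role below. The WT count also changed when other samples were left out, to 2 without WT RM replicate 2, WT RM replicate 3 or WT CD11b+ DC replicate 1, and to 3 without WT CD11b+ DC replicate 2. With the litter as a block it was 3. In Runx3Δ it was 11 without CD11b+ DC replicate 2 or replicate 3. Counted by sample, every CD11b+ DC lay above every RM in 10 of 35 genes (4.52% of rows), and in 25 of 35 when WT RM replicate 1 was set aside (6.3% of rows). No gene passed in a test of whether the difference itself depended on the genotype (0 of 35, with 0% of rows called).

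**Figure D3:**
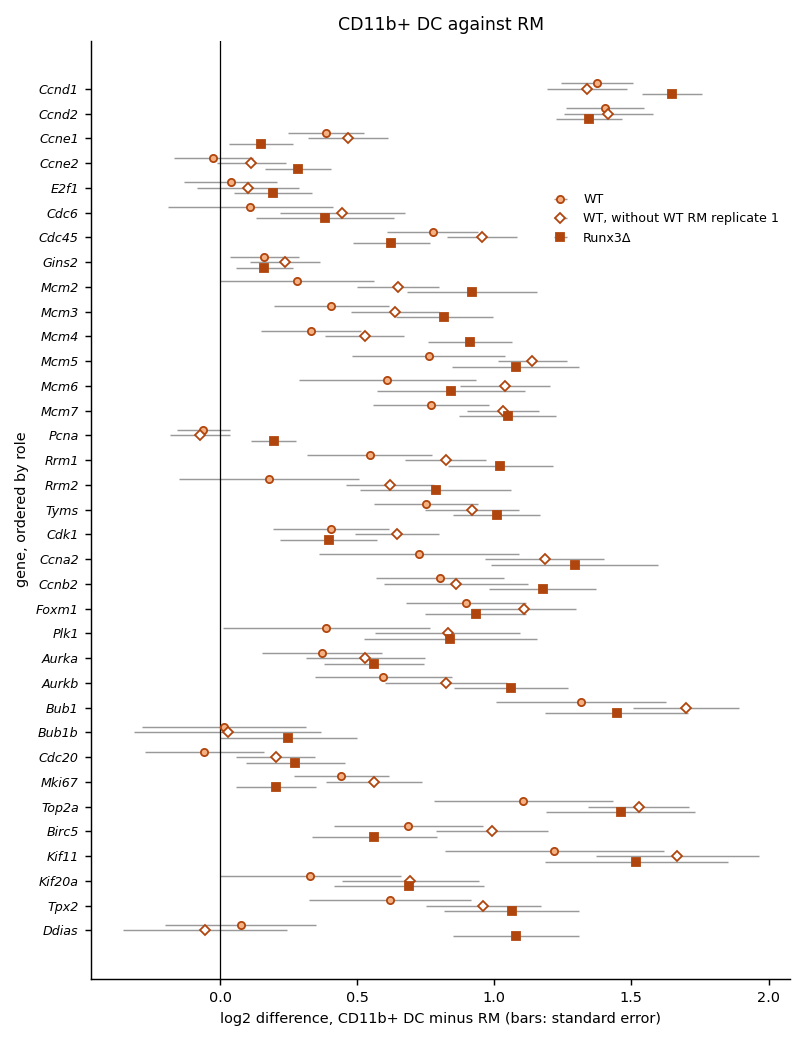
Log2 difference of CD11b+ DC minus RM for each cell cycle gene, with standard errors, in WT (circles), in WT without RM replicate 1 (diamonds) and in Runx3Δ (squares). In WT the median moves from 0.44 to 0.82 when RM replicate 1 is left out, and in Runx3Δ all 35 genes are above 0.

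Of the 5 genes that start the cycle, 2 were higher in CD11b+ DC in both genotypes, with and without WT RM replicate 1. They are D-type cyclins, which bind Cdk4 and Cdk6 in G1. *Ccnd1* had log2 levels of 8.39, 8.60 and 8.41 in WT RM, 8.05, 7.79, 8.10 and 8.06 in Runx3Δ RM, 9.99 and 9.69 in WT CD11b+ DC and 9.73, 9.59 and 9.64 in Runx3Δ CD11b+ DC. The lowest CD11b+ DC, at 9.59, lay above the highest RM, at 8.60, with a difference of 1.37 (standard error 0.13, adjusted p = 0.000135) in WT and 1.65 (standard error 0.11, adjusted p = 1.52e-05) in Runx3Δ. *Ccnd2* was at 9.91, 9.81 and 9.93 in WT RM, 9.42, 9.76, 9.91 and 9.85 in Runx3Δ RM, 11.31 and 11.26 in WT CD11b+ DC and 11.17, 10.93 and 11.13 in Runx3Δ CD11b+ DC, again without overlap of the cell types. Its difference was 1.40 (standard error 0.14, adjusted p = 0.000194) in WT and 1.35 (standard error 0.12, adjusted p = 7.24e-05) in Runx3Δ. In these 2 genes WT RM replicate 1 lay among the other RM, and without it the differences in WT were 1.34 and 1.41. The E-type cyclins, which work with Cdk2 at the entry into S phase, and *E2f1*, a transcription factor of the replication genes, did not pass. *Ccne1* differed by 0.39 (standard error 0.14, adjusted p = 0.159) in WT and 0.15 (standard error 0.12, adjusted p = 0.579) in Runx3Δ. *E2f1* differed by 0.04 and 0.19. *Ccne2*, the only one of the 35 with a mean log2 level under 5, was at 4.88, 4.57 and 4.36 in WT RM, 4.35, 4.51, 4.49 and 4.28 in Runx3Δ RM, 4.64 and 4.51 in WT CD11b+ DC and 4.64, 4.78 and 4.65 in Runx3Δ CD11b+ DC, and its groups overlapped.

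Of the 10 genes that license origins and run the replication fork, 6 were higher in Runx3Δ CD11b+ DC and 1 in WT, and 7 and 6 without WT RM replicate 1. The Mcm proteins 2 to 7 form the ring-shaped helicase that opens the DNA. *Mcm5*, whose E2F site is shown above, had log2 levels of 8.47, 7.39 and 7.28 in WT RM, 7.41, 7.66, 7.56 and 7.52 in Runx3Δ RM, 8.57 and 8.38 in WT CD11b+ DC and 8.49, 8.66 and 8.70 in Runx3Δ CD11b+ DC. The 5 CD11b+ DC and WT RM replicate 1 lay together, above the other 6 RM. The difference was 1.08 (standard error 0.23, adjusted p = 0.0154) in Runx3Δ and 0.76 (standard error 0.28, adjusted p = 0.168) in WT, or 1.14 (standard error 0.13, adjusted p = 0.0005) in WT without RM replicate 1. *Mcm7* was at 8.27, 7.53 and 7.44 in WT RM, 7.65, 7.69, 7.67 and 7.56 in Runx3Δ RM, 8.68 and 8.35 in WT CD11b+ DC and 8.58, 8.81 and 8.69 in Runx3Δ CD11b+ DC. Here the CD11b+ DC lay above all RM, with 1.05 (standard error 0.18, adjusted p = 0.00375) in Runx3Δ and 0.77 (standard error 0.21, adjusted p = 0.0603) in WT, or 1.03 (standard error 0.13, adjusted p = 0.00107) without RM replicate 1. *Mcm4* was at 8.70, 8.05 and 8.18 in WT RM, 8.07, 8.04, 8.12 and 7.92 in Runx3Δ RM, 8.63 and 8.65 in WT CD11b+ DC and 8.70, 9.11 and 9.04 in Runx3Δ CD11b+ DC, with 0.91 (standard error 0.15, adjusted p = 0.00362) in Runx3Δ and 0.33 (standard error 0.18, adjusted p = 0.416) in WT, or 0.53 (standard error 0.14, adjusted p = 0.0556) without RM replicate 1. WT RM replicate 1 was level with the CD11b+ DC again. *Mcm2* was at 8.78, 7.69 and 7.65 in WT RM, 7.49, 7.85, 7.55 and 7.64 in Runx3Δ RM, 8.47 and 8.17 in WT CD11b+ DC and 8.61, 8.42 and 8.63 in Runx3Δ CD11b+ DC, with WT RM replicate 1 the highest of all 12. Its difference was 0.92 (standard error 0.24, adjusted p = 0.0363) in Runx3Δ and 0.28 (standard error 0.28, adjusted p = 0.733) in WT, or 0.65 (standard error 0.15, adjusted p = 0.0257) without that sample. *Mcm3* was at 8.56, 7.95 and 7.77 in WT RM, 7.69, 7.74, 7.58 and 7.88 in Runx3Δ RM, 8.67 and 8.32 in WT CD11b+ DC and 8.36, 8.55 and 8.71 in Runx3Δ CD11b+ DC, with 0.82 (standard error 0.18, adjusted p = 0.0154) in Runx3Δ and 0.41 (standard error 0.21, adjusted p = 0.378) in WT, or 0.64 (standard error 0.16, adjusted p = 0.0395) without WT RM replicate 1. *Mcm6*, at 8.50, 7.41 and 7.02 in WT RM, 7.64, 7.63, 7.31 and 7.45 in Runx3Δ RM, 8.40 and 8.12 in WT CD11b+ DC and 8.32, 8.34 and 8.38 in Runx3Δ CD11b+ DC, did not pass in Runx3Δ, with 0.84 (standard error 0.27, adjusted p = 0.0934), and passed in both genotypes without WT RM replicate 1, with 1.04 (standard error 0.16, adjusted p = 0.00355) in WT. *Cdc45*, which joins the helicase at the fork, was at 6.68, 6.14 and 6.14 in WT RM, 6.37, 6.27, 6.43 and 6.28 in Runx3Δ RM, 7.09 and 7.10 in WT CD11b+ DC and 6.82, 6.90 and 7.16 in Runx3Δ CD11b+ DC. It passed in both genotypes, with 0.78 (standard error 0.17, adjusted p = 0.018) in WT and 0.63 (standard error 0.14, adjusted p = 0.0178) in Runx3Δ. Of the other genes of this role, *Cdc6*, which loads the helicase, differed by 0.11 in WT and 0.38 in Runx3Δ, *Gins2*, a helicase partner, by 0.16 and 0.16, and *Pcna*, the sliding clamp, by -0.06 and 0.20, and these did not pass. In Runx3Δ the calls of *Mcm3*, *Mcm5* and *Cdc45* were lost without CD11b+ DC replicate 2 or 3 (adjusted p of 0.0558 to 0.0828), that of *Cdc45* also without RM replicate 2 (0.0512), and that of *Mcm2* without any 1 of the 7 Runx3Δ samples (0.0527 to 0.117). With the litter as a block *Cdc45* (0.0537) and *Mcm2* (0.0612) did not pass in Runx3Δ. In WT the call of *Cdc45* was lost without RM replicate 2 (0.0566) or 3 (0.0697) and without CD11b+ DC replicate 1 (0.11) or 2 (0.113).

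Of the 3 enzymes that supply nucleotides, 2 were higher in Runx3Δ CD11b+ DC and 1 in WT, and 3 in each without WT RM replicate 1. *Rrm1*, the large subunit of ribonucleotide reductase, was at 8.77, 8.05 and 7.83 in WT RM, 7.63, 7.75, 7.90 and 7.80 in Runx3Δ RM, 8.90 and 8.63 in WT CD11b+ DC and 8.63, 8.86 and 8.89 in Runx3Δ CD11b+ DC. The CD11b+ DC lay between 8.63 and 8.90 and the RM other than WT replicate 1 between 7.63 and 8.05. The difference was 1.02 (standard error 0.19, adjusted p = 0.00694) in Runx3Δ, and in WT 0.55 (standard error 0.23, adjusted p = 0.24), or 0.82 (standard error 0.15, adjusted p = 0.00733) without RM replicate 1. *Tyms*, which makes thymidylate, was at 6.86, 6.22 and 6.49 in WT RM, 6.44, 6.37, 6.22 and 6.08 in Runx3Δ RM, 7.31 and 7.24 in WT CD11b+ DC and 7.11, 7.54 and 7.20 in Runx3Δ CD11b+ DC, with no overlap between the cell types. It passed in both genotypes, with 0.75 (standard error 0.19, adjusted p = 0.041) in WT and 1.01 (standard error 0.16, adjusted p = 0.00237) in Runx3Δ. *Rrm2*, the subunit that limits the enzyme to S phase, was at 8.03, 6.71 and 6.71 in WT RM, 6.56, 6.79, 6.91 and 6.54 in Runx3Δ RM, 7.48 and 7.17 in WT CD11b+ DC and 7.40, 7.42 and 7.64 in Runx3Δ CD11b+ DC. WT RM replicate 1 was the highest sample of all, and the difference was 0.79 (standard error 0.28, adjusted p = 0.127) in Runx3Δ and 0.18 (standard error 0.33, adjusted p = 0.885) in WT, or 0.62 (standard error 0.16, adjusted p = 0.0454) in WT without that sample, when Runx3Δ passed as well (adjusted p = 0.0025). The call of *Tyms* in WT was lost with the litter as a block (adjusted p = 0.0624), with each array centred on its median (0.0677), without RM replicate 2 (0.107) or 3 (0.116) or CD11b+ DC replicate 1 (0.216) or 2 (0.168), and also without Runx3Δ RM replicate 2 (0.0596) or 3 (0.0631) or Runx3Δ CD11b+ DC replicate 3 (0.0606), which enter only through the shared spread.

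Among 10 kinases, cyclins and regulators of mitosis, 5 were higher in Runx3Δ CD11b+ DC and 2 in WT, and 6 and 4 without WT RM replicate 1. *Foxm1*, the transcription factor of the mitosis genes, was at 5.98, 5.36 and 5.35 in WT RM, 5.19, 5.28, 5.70 and 5.35 in Runx3Δ RM, 6.73 and 6.19 in WT CD11b+ DC and 6.29, 6.31 and 6.33 in Runx3Δ CD11b+ DC. The CD11b+ DC were above all RM, by 0.90 (standard error 0.22, adjusted p = 0.0352) in WT and 0.93 (standard error 0.18, adjusted p = 0.00956) in Runx3Δ. *Bub1*, a kinase of the spindle checkpoint, was at 6.60, 5.47 and 5.43 in WT RM, 5.33, 5.88, 5.30 and 5.24 in Runx3Δ RM, 7.15 and 7.14 in WT CD11b+ DC and 6.76, 6.89 and 7.0 in Runx3Δ CD11b+ DC. It had the largest difference in WT after the D-type cyclins, 1.31 (standard error 0.31, adjusted p = 0.0293), and 1.45 (standard error 0.26, adjusted p = 0.00542) in Runx3Δ. *Ccna2*, cyclin A, which acts in S phase and G2, was at 8.09, 6.88 and 6.53 in WT RM, 6.70, 6.95, 6.86 and 6.74 in Runx3Δ RM, 8.11 and 7.68 in WT CD11b+ DC and 7.75, 8.22 and 8.35 in Runx3Δ CD11b+ DC. WT RM replicate 1, at 8.09, lay among the CD11b+ DC, and the difference was 1.29 (standard error 0.30, adjusted p = 0.0242) in Runx3Δ and 0.72 (standard error 0.36, adjusted p = 0.356) in WT, or 1.18 (standard error 0.22, adjusted p = 0.0079) without that sample. *Ccnb2*, a cyclin B with a CHR element shown above, was at 8.25, 8.20 and 7.94 in WT RM, 7.72, 8.16, 8.31 and 7.74 in Runx3Δ RM, 8.69 and 9.18 in WT CD11b+ DC and 8.82, 9.43 and 9.23 in Runx3Δ CD11b+ DC, without overlap of the cell types. The difference was 1.18 (standard error 0.19, adjusted p = 0.00331) in Runx3Δ and 0.80 (standard error 0.23, adjusted p = 0.0755) in WT. *Aurkb*, the kinase of the chromosomal passenger complex, was at 7.46, 6.83 and 6.73 in WT RM, 6.32, 6.88, 6.92 and 6.83 in Runx3Δ RM, 7.72 and 7.48 in WT CD11b+ DC and 7.53, 7.77 and 8.08 in Runx3Δ CD11b+ DC, with 1.06 (standard error 0.21, adjusted p = 0.00926) in Runx3Δ and 0.60 (standard error 0.25, adjusted p = 0.238) in WT. The other 5 did not pass in either genotype with all samples: *Cdk1*, the mitotic kinase, at 0.40 in WT and 0.40 in Runx3Δ, *Plk1* at 0.39 and 0.84, *Aurka* at 0.37 and 0.56, *Bub1b* at 0.01 and 0.25, and *Cdc20*, an activator of the anaphase-promoting complex, at -0.06 and 0.27. Without WT RM replicate 1, *Cdk1* passed in WT (0.65, adjusted p = 0.0297) and *Plk1* in Runx3Δ (0.84, adjusted p = 0.027). The calls of *Foxm1* and *Bub1* in WT were lost with the litter as a block (adjusted p of 0.0815 and 0.0535), without WT RM replicate 2 (0.1 and 0.0851) or 3 (0.123 and 0.104) and without WT CD11b+ DC replicate 1 (0.306 and 0.155). That of *Bub1* was also lost without WT CD11b+ DC replicate 2 (0.153). That of *Foxm1* was also lost with each array centred on its median (0.0535) and without any 1 of 5 Runx3Δ samples, RM 2 and 4 and the 3 CD11b+ DC (0.0515 to 0.0552). The call of *Ccna2* in Runx3Δ was lost with the block (adjusted p = 0.0648), without CD11b+ DC replicate 2 or 3 (0.101 and 0.0971) and without RM replicate 1, 3 or 4 (0.0527 to 0.0609).

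Of 7 genes of chromosomes, spindle and survival, 4 were higher in Runx3Δ CD11b+ DC and 0 in WT, and 6 and 4 without WT RM replicate 1. *Top2a*, the topoisomerase that untangles chromosomes, was at 8.77, 7.75 and 7.28 in WT RM, 7.36, 7.71, 7.71 and 7.53 in Runx3Δ RM, 9.21 and 8.87 in WT CD11b+ DC and 9.05, 9.0 and 9.07 in Runx3Δ CD11b+ DC. The lowest CD11b+ DC, at 8.87, was above the highest RM, WT replicate 1 at 8.77. The difference was 1.46 (standard error 0.27, adjusted p = 0.00686) in Runx3Δ and 1.11 (standard error 0.33, adjusted p = 0.0786) in WT, or 1.53 (standard error 0.18, adjusted p = 0.000756) without that RM sample. A dimmer *Top2a* row had a mean log2 level of 3.49, and the mean of the rows gave 0.91 in Runx3Δ. *Kif11*, the motor that separates the spindle poles, was at 7.61, 6.67 and 5.86 in WT RM, 5.68, 6.30, 6.32 and 6.19 in Runx3Δ RM, 8.05 and 7.82 in WT CD11b+ DC and 7.33, 7.69 and 7.91 in Runx3Δ CD11b+ DC. Its difference was 1.52 (standard error 0.33, adjusted p = 0.0169) in Runx3Δ and 1.22 (standard error 0.40, adjusted p = 0.117) in WT, or 1.67 (standard error 0.30, adjusted p = 0.00663) without WT RM replicate 1. *Tpx2*, which activates Aurora A on the spindle, was at 7.26, 6.35 and 6.14 in WT RM, 5.76, 6.32, 6.02 and 6.32 in Runx3Δ RM, 7.37 and 7.03 in WT CD11b+ DC and 7.15, 7.0 and 7.36 in Runx3Δ CD11b+ DC, with 1.06 (standard error 0.25, adjusted p = 0.0219) in Runx3Δ and 0.62 (standard error 0.29, adjusted p = 0.317) in WT, or 0.96 (standard error 0.21, adjusted p = 0.0198) without WT RM replicate 1. *Ddias*, an inhibitor of apoptosis after DNA damage, was at 7.85, 8.25 and 8.23 in WT RM, 6.0, 7.07, 6.94 and 6.91 in Runx3Δ RM, 8.15 and 8.22 in WT CD11b+ DC and 7.57, 7.92 and 7.94 in Runx3Δ CD11b+ DC. Its WT samples of both cell types overlapped, with a difference of 0.08 (standard error 0.28, adjusted p = 0.949), while in Runx3Δ the CD11b+ DC lay above the RM by 1.08 (standard error 0.23, adjusted p = 0.0147). *Mki67*, which encodes Ki-67, was at 10.38, 9.91 and 10.13 in WT RM, 9.89, 10.27, 10.05 and 10.17 in Runx3Δ RM, 10.54 and 10.62 in WT CD11b+ DC and 10.47, 10.02 and 10.41 in Runx3Δ CD11b+ DC. Its samples ranged from 9.89 to 10.62, the cell types overlapped, and it did not pass, with 0.44 (standard error 0.17, adjusted p = 0.206) in WT and 0.20 (standard error 0.15, adjusted p = 0.54) in Runx3Δ. With all samples, *Birc5*, or survivin, at 0.69 and 0.56, and *Kif20a*, a motor of cytokinesis, at 0.33 and 0.69, did not pass either, and without WT RM replicate 1 *Birc5* passed in both genotypes (0.99 and 0.56) and *Kif20a* in Runx3Δ (0.69). The Runx3Δ values themselves do not use that sample, and their calls moved through the spread shared by all groups. The calls of *Kif11*, *Tpx2* and *Ddias* in Runx3Δ were lost without CD11b+ DC replicate 2 or 3 (adjusted p of 0.0553 to 0.0891), and that of *Tpx2* also without RM replicate 1 (0.0515) or 3 (0.0566) or CD11b+ DC replicate 1 (0.0663). Read against the promoters, 3 of the 9 mitosis genes with a CHR element (*Ccnb2*, *Kif11*, *Top2a*) and 3 of the 5 S phase genes with an E2F site (*Mcm3*, *Mcm5*, *Mcm7*) were among the 19 of 35 called in Runx3Δ, and 0 and 0 were called in WT. Without WT RM replicate 1 these counts were 4 and 4 in Runx3Δ and 3 and 4 in WT. Of the 19, 11 stayed past the threshold when any 1 of the 12 samples was left out: *Ccnd1*, *Ccnd2*, *Mcm4*, *Mcm7*, *Rrm1*, *Tyms*, *Ccnb2*, *Foxm1*, *Aurkb*, *Bub1* and *Top2a*.

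**Figure D4:**
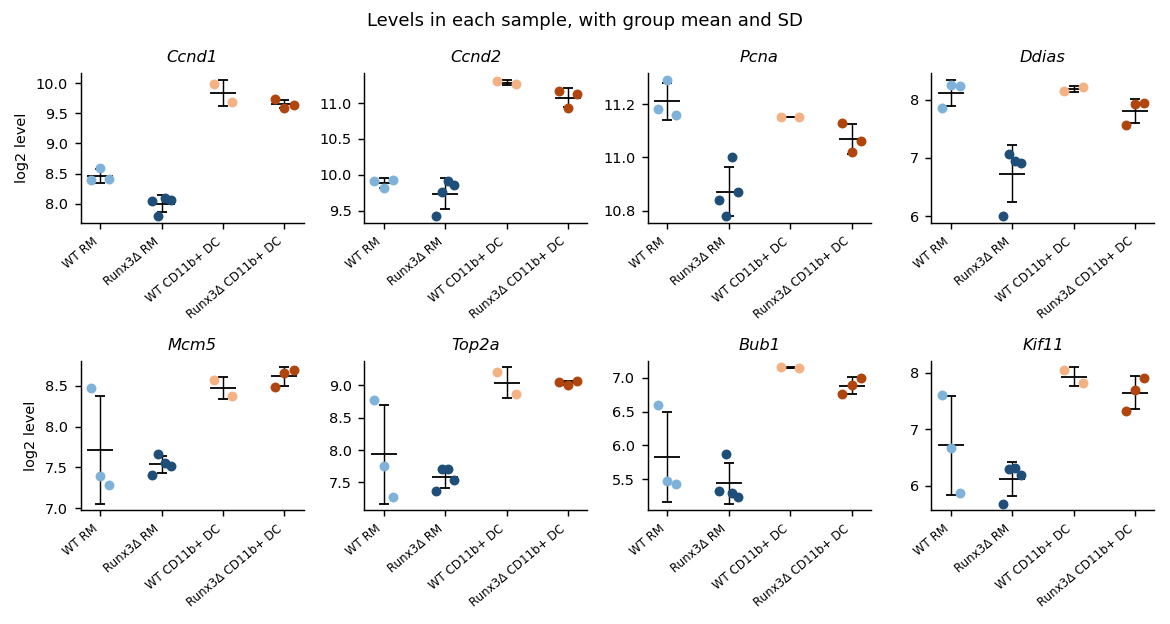
Log2 levels of 8 cell cycle genes in each sample (points), with group means and SDs (bars), the samples of each group drawn from left to right in the order of their replicate numbers. *Ccnd1* and *Ccnd2* part the cell types in every sample, *Mcm5*, *Top2a*, *Bub1* and *Kif11* have 1 WT RM near the CD11b+ DC, and *Ddias* and *Pcna* are lower in every Runx3Δ RM than in every WT RM.

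In RM, the loss of Runx3 moved none of the 35 genes past the threshold (limma, 0 of 35 called, with 0.0141% of rows called). At an unadjusted p under 0.05 (limma) there were 4 of 35, a cut for which no share over all rows was computed in any comparison. The median was -0.25, with 32 of 35 below 0, against 0.01 over all genes. That shift went with WT RM replicate 1, the sample described above: without it 19 were below 0 and 16 above, and the median was -0.01. The study itself asked for a change of 1.5-fold or more at an unadjusted p up to 0.05. At these thresholds, with the p of the limma fit, 0 genes were higher (0.728% of rows) and 1, *Ddias*, was lower (0.731% of rows). By the methods' test on the compared groups alone, 0 were higher and 1 lower, with 159 rows higher and 160 lower. *Ddias* was at 7.85, 8.25 and 8.23 in WT RM and 6.0, 7.07, 6.94 and 6.91 in Runx3Δ RM, so that every Runx3Δ sample was below every WT sample. The difference was -1.38 (standard error 0.23, adjusted p = 0.117), and -1.51 (standard error 0.26, adjusted p = 0.063) without WT RM replicate 1, which was the lowest WT sample. With the litter as a block *Ddias* was at -1.42 and passed (adjusted p = 0.0404), and the 23 alternatives spanned adjusted p of 0.0225 to 0.707. *Ddias* had been named in earlier results of these data.

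The Runx3Δ RM were below all WT RM in 3 of 35 genes (3.43% of rows) and above in 0 (4.12% of rows). Beside *Ddias* these were *Ccnd1* and *Pcna*. *Ccnd1* was at 8.39, 8.60 and 8.41 in WT and 8.05, 7.79, 8.10 and 8.06 in Runx3Δ RM, with a difference of -0.47 (standard error 0.11, adjusted p = 0.25). *Pcna*, the clamp that holds polymerases on DNA, was at 11.18, 11.29 and 11.16 and 10.84, 10.78, 11 and 10.87, with a difference of -0.34 (standard error 0.08, adjusted p = 0.274). In neither was WT RM replicate 1 the highest WT sample, and without it the differences were -0.50 and -0.35. *Rrm1* differed by -0.45 (standard error 0.19, adjusted p = 0.597) with all samples and by -0.17 without WT RM replicate 1. The differences of *Kif11* (-0.59), *Tpx2* (-0.48) and *Mcm3* (-0.37) were -0.14, -0.14 and -0.14 without it.

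In CD11b+ DC, the genes lay on both sides of 0. None passed (limma, 0 of 35 called, with 0% of rows called, and 0 at an unadjusted p under 0.05). At the thresholds of the study, with the limma p, 0 genes were called in either direction (0.633% of rows higher, 1.5% lower). By the methods' test 0 were called too, with 142 rows higher and 290 lower. The median was 0.01, the same as over all genes, with 20 genes above 0 and 15 below. It changed sign with the samples used, at 0.14 without WT replicate 1, -0.11 without WT replicate 2, -0.07 without Runx3Δ replicate 3 and -0.09 with the litter as a block. The Runx3Δ samples were above both WT samples in 1 of 35 genes (*Mcm4*, 13.1% of rows) and below both in 5 (*Ccnd2*, *Pcna*, *Bub1*, *Mki67* and *Ddias*, 12.6% of rows). The smallest p belonged to *Mcm4*, with 0.31 (standard error 0.18, adjusted p = 0.801), and *Mki67*, with -0.28 (standard error 0.17, adjusted p = 0.815). *Ccnd1* and *Ccnd2* were at -0.19 and -0.21, and *Ddias* at -0.38 (standard error 0.28, adjusted p = 0.859).

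The effect of the genotype, taken as the change in CD11b+ DC minus that in RM, differed between the cell types in 0 of 35 genes (limma, 0% of rows called, and 2 of 35 at an unadjusted p under 0.05, with no share over all rows computed). Its median was 0.28, with 28 genes above 0, and 0.03 without WT RM replicate 1. The largest value was that of *Ddias*, 1.0 (standard error 0.36, adjusted p = 1).

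**Figure D5:**
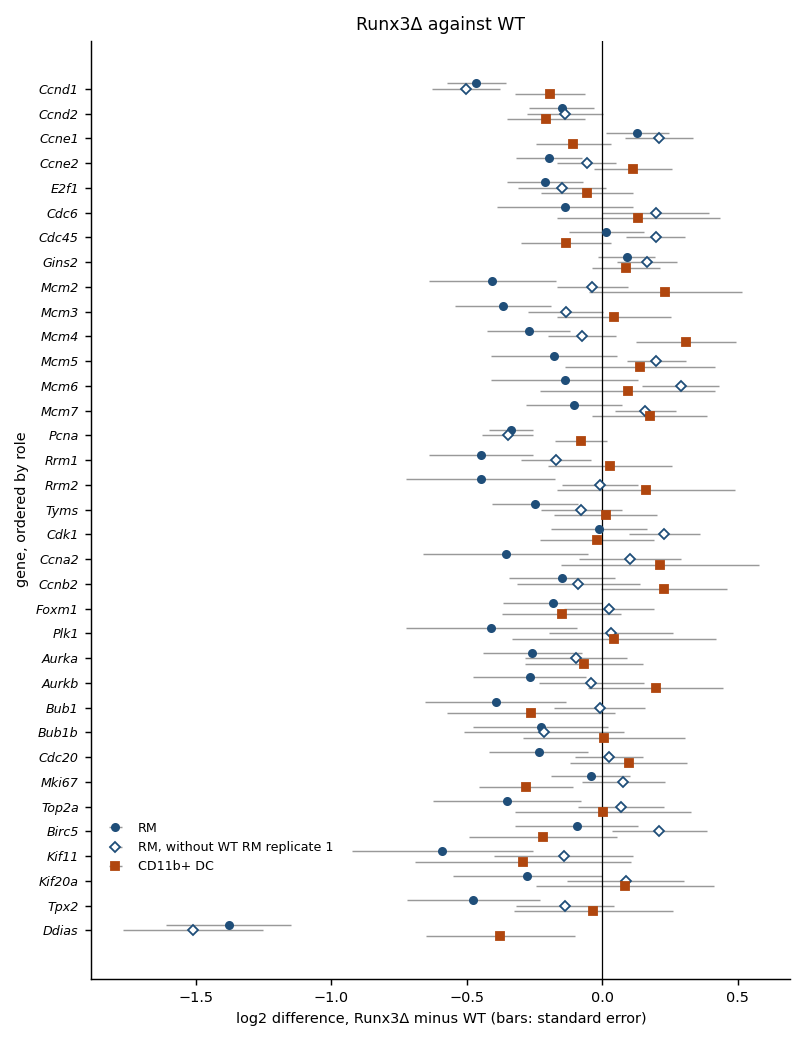
Log2 difference of Runx3Δ minus WT for each cell cycle gene, with standard errors, in RM (filled circles), in RM without WT replicate 1 (diamonds) and in CD11b+ DC (squares). Most RM values lie below 0 with all samples (median -0.25) and around 0 without WT RM replicate 1 (median -0.01), and *Ddias* stands apart at -1.38.

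Further genes of the cycle, from lists of other replication genes, other mitosis genes, drivers of G1 and inhibitors of the cycle, were measured in the same fit. Genes of these lists named in this paragraph for the difference between the cell types were chosen after their values were seen. Over all rows, 3.02% were higher and 3.05% lower in WT CD11b+ DC than in WT RM, and 4.12% and 3.73% in Runx3Δ. Without WT RM replicate 1, 3.7% of rows were higher in WT and 4.95% in Runx3Δ. Of 36 other replication genes, 10 were higher in Runx3Δ CD11b+ DC and 0 lower, and 1 was higher and 2 lower in WT, or 13 and 2 without WT RM replicate 1. *Prim1*, the primase, differed by 1.28 (standard error 0.20, adjusted p = 0.00234) in Runx3Δ, and *Tk1*, thymidine kinase, by 0.57 in WT and 0.74 in Runx3Δ. Against the direction of most others, the 2 lower in WT CD11b+ DC were *Cdt1*, a loader of the helicase, and *Chaf1b*. *Cdt1* differed by -0.77 (standard error 0.11, adjusted p = 0.00157) and *Chaf1b* by -0.96 (adjusted p = 0.0432). Of 48 other mitosis genes, 23 were higher and 1 lower in Runx3Δ CD11b+ DC, and 10 were higher and 1 lower in WT, or 26 and 1 without WT RM replicate 1. *Kif4*, a chromosome motor, differed by 1.53 (standard error 0.28, adjusted p = 0.00718) in WT and 1.47 (standard error 0.23, adjusted p = 0.00247) in Runx3Δ, and *Racgap1*, needed for cytokinesis, by 1.07 and 1.11. *Pttg1*, or securin, was the gene that was lower, in both genotypes (-0.37 and -0.30). The medians were 0.29 and 0.38 for the replication list and 0.53 and 0.67 for the mitosis list, in WT and Runx3Δ, and 0.55 and 0.77 for the lists in WT without that sample.

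Among 18 drivers of G1 and S phase entry, 5 were higher in Runx3Δ CD11b+ DC, or 8 without WT RM replicate 1, and 2 were higher and 1 lower in WT. Beside these counts and those of the inhibitors stand 3.02% of rows higher and 3.05% lower in WT, and 4.12% and 3.73% in Runx3Δ. Without WT RM replicate 1, 3.7% of rows were higher in WT and 4.95% in Runx3Δ. *Ccnd3*, the remaining D-type cyclin, differed by 1.30 (standard error 0.21, adjusted p = 0.00359) in WT and 1.19 (standard error 0.18, adjusted p = 0.0016) in Runx3Δ, so that all 3 D-type cyclins were higher in CD11b+ DC of both genotypes. Their partner *Cdk4* was higher in Runx3Δ, by 0.42. Of 20 measured inhibitors, 4 were higher and 1 lower in Runx3Δ CD11b+ DC, and 2 were higher and 1 lower in WT, or 3 and 2 without WT RM replicate 1, with medians of -0.02 and 0.04. Those that were higher included *Pkmyt1* (0.53 in WT, 0.79 in Runx3Δ) and *Wee1* (0.52 in Runx3Δ), kinases that hold Cdk1 inactive before mitosis, *Cdkn2c* (0.47 in Runx3Δ) and *Cdkn2d* (0.97 in WT), inhibitors of Cdk4 and Cdk6, and *Rbl1* (0.64 in Runx3Δ), of the retinoblastoma family. *Gadd45a*, a stress-induced inhibitor, was lower in both genotypes (-0.79 and -0.89). WT RM replicate 1 was the highest of the 7 RM in 47 of 48 other mitosis genes, 31 of 36 other replication genes and 12 of 18 drivers, but in 6 of 20 inhibitors.

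In the comparisons of Runx3Δ with WT, 0 genes of these 4 lists passed in RM or in CD11b+ DC (limma, with 0.0141% and 0% of rows called). At an unadjusted p under 0.05 (limma) there were 2, 6, 3 and 5 genes in RM, in the order replication, mitosis, drivers, inhibitors. In CD11b+ DC there were 1, 2, 3 and 5. No share over all rows was computed at this cut, so these counts are not read further. The medians in RM were -0.13, -0.28, -0.09 and -0.15, and 0.06, -0.01, 0.04 and -0.08 without WT RM replicate 1. *Cdt1* came closest in RM. It was at 8.83, 8.81 and 8.67 in WT and 8.17, 8.12, 8.23 and 8.29 in Runx3Δ RM, without overlap, as in 3.43% of all rows in that direction. The difference was -0.57 (standard error 0.09, adjusted p = 0.0949). *Ncaph*, a condensin subunit, differed in RM by -0.65 (standard error 0.19, adjusted p = 0.404), or -0.40 without WT RM replicate 1, *Cdk6* by -0.41 (standard error 0.11, adjusted p = 0.358) and *Wee1* by -0.49 (standard error 0.12, adjusted p = 0.294). In CD11b+ DC the smallest p of each list belonged to *Tk1* (0.27 (standard error 0.11, adjusted p = 0.692)), *Cks2* (-0.58 (standard error 0.17, adjusted p = 0.514)), *Tfdp2*, a partner of E2F (-0.49 (standard error 0.10, adjusted p = 0.278)), and *Cdkn2d* (-0.57 (standard error 0.15, adjusted p = 0.427)). *Tfdp2* was at 6.97 and 6.93 in WT and 6.47, 6.47 and 6.45 in Runx3Δ CD11b+ DC, without overlap, as in 12.6% of all rows in that direction.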

How the data were processed

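RNA of sorted cells was labelled and hybridized to Affymetrix arrays. Per the labels and the methods, the authors imported the scans into Partek and normalized them by RMA after correcting for GC content. The deposited values, 1 per row and array, are log2 intensities and were used unaltered. The processing notes name the build mm9. The methods name an exon array, while the annotation used here is that of the platform record. Of 35556 rows, 21789 carry 1 gene symbol, 1621 several and 12146 none, of which 6617 lead the table. All samples entered a single linear model of the 4 groups (limma 3.58.1, R 4.3.3; statmod 1.5.0 for the random block), from which 5 comparisons were drawn. The Benjamini-Hochberg adjustment ran over every row, at 0.05. Counts at 1.5-fold and an unadjusted p of 0.05, the thresholds of the study, are also given, with the limma p unless the methods' test is named. Differences are in log2 units.

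The labels give litter numbers, taken to mark shared litters, which pair the samples in part. Each RM replicate, in both genotypes, had the litter of its own number. WT CD11b+ DC replicates 1 and 2 were of litters 2 and 3, and Runx3Δ CD11b+ DC replicates 1, 2 and 3 of litters 1, 3 and 4. Litter 1, that of WT RM replicate 1, thus held no WT CD11b+ DC. After removal of the group means, samples of 1 litter correlated at a median of 0.0958 (13 pairs, -0.0412 to 0.358) and those of different litters at -0.0347 (40 pairs, -0.257 to 0.203). Alternatives were the litter as a fixed or random block, the samples of the compared groups alone, the methods' test, an intensity trend with a robust prior, quantile normalization, centring of each array on its median, a mean log2 level of at least 5, removal of the leading unnamed rows, the mean of the rows of a gene, adjustment over genes, and the omission of each sample. Setting WT RM replicate 1 aside in the counts by sample, its place in each list, and the wider lists without it, were chosen after seeing the data. So was the choice to print the values of single genes without this sample. The fit was tested on simulated data.

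The genes and lists were chosen with earlier results of these data known, *Ddias* among them. Genes were named by their role, with values in every sample for those past a threshold or among the 8 smallest p of a comparison, and up to 4 genes of each list per genotype comparison. The marker lists used were those of RM, CD11b+ DC, cDC1, B and plasma cells, and T and NK cells. Lists of epithelial, stromal and endothelial, monocyte, granulocyte and mast cell, and erythroid markers were also used. Promoters were matched by symbol to RefSeq. Figures were drawn with Python and matplotlib.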

Additional observations from a re-analysis of the deposited data

Results flagged for a closer look

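In 4 of 35 genes, 1 of the 4 Runx3Δ RM samples lay far from the other 3 by Dixon's test on the ratio of gap to range, a test that chance passes in about 1 of 20 groups. *Ccnd1* had a ratio of 0.843, with replicate 2 the lowest at 7.79. *Aurkb* had a ratio of 0.853, with replicate 1 the lowest at 6.32. *Bub1* had a ratio of 0.856, with replicate 2 the highest at 5.88. *Ddias* had a ratio of 0.854, with replicate 1 the lowest at 6.00; without that sample its difference from WT RM was -1.14 (adjusted p = 0.0504, limma). Replicate 1 of the Runx3Δ RM was the lowest of the 7 RM in 14 of 35 genes, a count for which no share over all rows was computed. The WT RM, the group in which replicate 1 stood apart, has 3 samples and was not tested in this way.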

How the results depend on the processing

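Of the results computed under the alternatives, the median difference between Runx3Δ and WT CD11b+ DC changed its direction: it was 0.01, between -0.11 and 0.14 with 1 sample left out, and -0.09 with the litter as a fixed replicate block. In RM the count of genes called for the loss of Runx3 was 0, and 1 (*Ddias*) with the litter as a fixed replicate block, without the leading unnamed rows, and with the mean of the rows of a gene; it was 0 in CD11b+ DC under all 23 alternatives. In WT the count of genes higher in CD11b+ DC was 6, and 3 with the litter as a fixed replicate block, 2 with the samples of the compared groups alone, 0 by the methods' test after adjustment (which called 0 of all rows there, and 4 of the 35 genes at the thresholds of the study), and 2 to 19 with 1 sample left out; its median ranged from 0.33 to 0.82. In Runx3Δ that count was 19, and 11 to 24 with 1 sample left out. The count of genes in which every CD11b+ DC lay above every RM was 10, and 25 without WT RM replicate 1. The median difference of the genotype effect between the cell types was 0.031 without WT RM replicate 1, and ranged from 0.03 to 0.43 with 1 sample left out. The block changed no other count by over 1.5 times. For that difference the compared groups alone gave no separate fit, since it uses all 4. Omitting 1 of the 2 WT CD11b+ DC leaves a single array, assumed to vary like the other groups. *Ccne2* alone lay under a log2 level of 5, where signal limits the measurement.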
